A study of Homo sapiens with 6 samples.

Results

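The report concerns 10 genes that serve, or lie beside, antigen presentation by major histocompatibility complex (MHC) class I molecules: NLRC5, PSMB9, PSMB10, ERAP2, TAPBPL, HLA-C, HLA-F, CTSS, BTN3A1 and BTN3A3. They are 10 of the 13707 complete genes in the deposited expression table and were found there by gene name. They were selected on their function together with their measured log2 fold changes between C and K, so their C and K values are given below as a description, with no test. The RNA-seq libraries came from MDA-MB-231, a line that grew out of a metastatic triple-negative breast tumour and lacks hormone receptors and HER2, with 3 libraries titled C1 to C3 and 3 titled K1 to K3. All 6 carry the same cell line label, and the series sets control cells against cells given colistimethate, the prodrug of the antibiotic colistin, at 20 µM. No label says which letter is the treated arm, so each difference is C relative to K and neither letter is called treated or control. Whether the repeats of a letter were cultured apart is not stated, and a p-value here is set by how far libraries of a letter spread, some of which may be technical.

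Class I molecules show peptides from inside a cell to T cells. Proteasomes cut proteins, and the immunoproteasome, which interferon induces, carries alternative catalytic subunits. Peptides enter the endoplasmic reticulum through the TAP transporter, are trimmed there by aminopeptidases and are loaded onto a heavy chain paired with the light chain B2M. NLRC5 is a transactivator that binds class I promoters through factors already sitting on them, and tumour cells often lower parts of this pathway.

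Promoter sequence is shown first because the members are known as interferon-responsive genes and because HLA-C, the member that stood apart from the rest, has a close relative in HLA-F. RefSeq starts on GRCh38.p14 gave 9 windows of 250 bases before to 50 bases after the start, for 7 of the 10 members: HLA-C, HLA-F, ERAP2, TAPBPL, PSMB9, PSMB10 and BTN3A3. Both strands were searched for the interferon-stimulated response element (ISRE, a pair of GAAA on one strand with any 2 bases between), the shorter site of interferon regulatory factors (IRF, AANNGAAA, which also lies within every ISRE match), the STAT element GAS (TTCNNNGAA), the CCAAT box bound by NF-Y (CCAAT), a core of the X1 box bound by RFX (AGCAAC), the short site of CREB and ATF factors (TGACG) and an NF-kB site (GGG and TTTCC with any 2 bases between). Capitals below mark every match to any of these, on either strand, and all sequences read 5′ to 3′ along the gene.
HLA-C, chr6:31272043-31272342, minus strand: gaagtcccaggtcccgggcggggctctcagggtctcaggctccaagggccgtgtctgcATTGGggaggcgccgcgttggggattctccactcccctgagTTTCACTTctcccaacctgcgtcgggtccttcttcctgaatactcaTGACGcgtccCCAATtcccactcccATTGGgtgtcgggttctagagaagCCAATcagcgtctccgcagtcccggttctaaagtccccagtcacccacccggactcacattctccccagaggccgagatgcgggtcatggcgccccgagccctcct
HLA-F, chr6:29723184-29723483, plus strand: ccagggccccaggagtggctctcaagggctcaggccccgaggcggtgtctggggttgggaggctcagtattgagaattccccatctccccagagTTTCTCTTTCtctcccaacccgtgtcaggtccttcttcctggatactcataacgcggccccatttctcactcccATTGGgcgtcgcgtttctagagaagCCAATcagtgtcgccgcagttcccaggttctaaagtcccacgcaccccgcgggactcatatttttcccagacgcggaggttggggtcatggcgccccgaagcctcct
PSMB10, chr16:67936801-67937100, minus strand: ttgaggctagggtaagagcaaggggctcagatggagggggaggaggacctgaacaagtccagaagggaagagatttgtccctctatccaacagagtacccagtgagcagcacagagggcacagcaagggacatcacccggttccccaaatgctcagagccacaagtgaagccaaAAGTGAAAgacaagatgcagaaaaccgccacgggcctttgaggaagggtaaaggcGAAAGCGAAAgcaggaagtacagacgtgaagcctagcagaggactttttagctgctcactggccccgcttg
ERAP2, second start, chr5:96876250-96876549, plus strand: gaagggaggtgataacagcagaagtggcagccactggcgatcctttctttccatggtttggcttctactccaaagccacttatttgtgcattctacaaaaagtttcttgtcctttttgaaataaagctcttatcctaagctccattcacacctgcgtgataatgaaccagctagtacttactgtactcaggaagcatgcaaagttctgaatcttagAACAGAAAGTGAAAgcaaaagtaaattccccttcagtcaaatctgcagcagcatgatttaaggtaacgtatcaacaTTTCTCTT
BTN3A3, chr6:26440254-26440553, plus strand: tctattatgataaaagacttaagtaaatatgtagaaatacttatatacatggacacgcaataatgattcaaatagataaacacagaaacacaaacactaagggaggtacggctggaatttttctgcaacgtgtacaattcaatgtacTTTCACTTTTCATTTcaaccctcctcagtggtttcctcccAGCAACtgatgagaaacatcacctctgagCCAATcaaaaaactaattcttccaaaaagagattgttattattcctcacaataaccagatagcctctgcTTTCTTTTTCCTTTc

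These 5 windows are the ones that hold an ISRE match or belong to a class I heavy chain. The ISRE letters were found in 4 of the 9 windows, one each for HLA-F, ERAP2, PSMB10 and BTN3A3, while 3.57% of all 34943 promoter windows of this length hold them. In HLA-F the match ran from 156 to 147 bases before the start, and in PSMB10 from 21 to 12 bases before it. The BTN3A3 match lay 36 to 45 bases after the start, outside the stretch before it. The shorter IRF site was found in 6 windows, of HLA-C, HLA-F, ERAP2, TAPBPL, PSMB10 and BTN3A3, against 22.9% of all windows. CCAAT was found in 4 windows, of HLA-C, HLA-F, PSMB9 and BTN3A3, against 34.6% of all windows. The X1 core was found in the BTN3A3 window, against 12.8% of all windows. TGACG was found in the windows of HLA-C and PSMB9, against 24.5%, and the NF-kB letters in the second TAPBPL window, against 1.91%. GAS letters were found in 0 of the 9 windows and in 7.66% of all windows. The HLA-C and HLA-F windows were the most alike, with 241 of 300 bases identical in a global alignment (80.3%), while the other 35 pairs of windows ranged from 39.0% to 53.3%. HLA-C held CCAAT at 4 places, against 2 in HLA-F, and it held TGACG 105 to 101 bases before the start, where HLA-F had no match. Such a match is a string of letters and not a measured binding site.

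**Figure D1:**
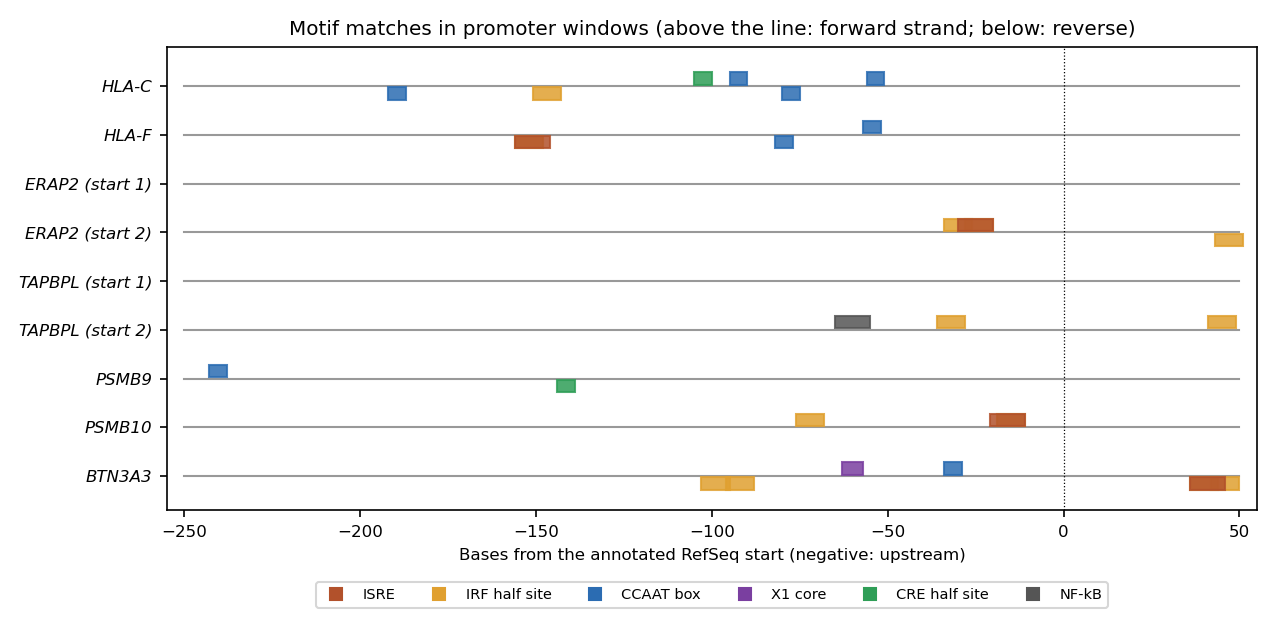
Motif matches along the 9 promoter windows of 7 members; the x axis gives bases from the RefSeq start (dotted line), boxes above a line are matches on the gene's strand and boxes below it on the reverse strand. ISRE matches (dark red) stand before the start in HLA-F, the second ERAP2 window and PSMB10, and after it in BTN3A3.

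All 10 members passed the low-count filter, with 124 to 6848 reads per library. Depth over the listed genes was 31438065 to 35946691 reads per library. Of 9057 genes tested with edgeR's quasi-likelihood test, 5.61% passed a Benjamini-Hochberg adjusted p of 0.05, with 2.20% higher and 3.41% lower in C, and 27.0% had an unadjusted p under 0.05. Markers of the line were present. Their summed TPM (the deposited level, taken as scaled by length and library total) was 2370 to 2505 in C and 2107 to 2272 in K over 5 mesenchymal-like markers. All 5 were tested, and 1 rose and 1 fell in C. Leukocytes express many of the members at high levels. Of 17 markers of blood cells looked up, 11 were found in the table. Of these, 6 had at most 3 reads over all libraries, CD3E, CD3D, CD2, MS4A1, TYROBP and HBB. With CD79A and FCER1G, 8 of the 11 stayed under 1 TPM in every library, and the others did not. The list summed to 661 to 689 TPM in C and 674 to 707 TPM in K. SRGN held most of this, with a mean of 418 TPM, and the rest came from other markers of the list. Luminal breast markers summed to 7.89 to 8.54 TPM in C and 9.95 to 11.7 TPM in K over 4 genes, of which CDH1 had at most 3 reads over all libraries. Of the 3 luminal markers tested, 2 fell in C. The part of these marker differences in the results below was not tested. In bulk RNA, fewer cells of a type and less RNA per cell cannot be told apart.

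By CPM, reads scaled to the TMM-adjusted library size and not to gene length, 9 members had lower values in every C library than in any K library, and HLA-C had higher values in every C library. By TPM the count of lower members was 8, since ERAP2 overlapped. The mean CPM of the 9 was 14.3% to 37.7% below that of K. In the fit over all genes 6 members passed lower in C and 1 higher, beside the 3.41% and 2.20% of all genes given above; libraries did not overlap for 17.7% of all tested genes in the lower direction and 16.1% in the higher. These counts describe how the members were picked. The median log2 fold change of the 10 was -0.48, against -0.004 over all tested genes. With one library left out, 2 members passed in each fit that lacked a C library, 1 in the fit lacking K1, 5 in the fit lacking K2 and 1 in the fit lacking K3. Calls over all genes changed in the same fits. They went from 508 with all libraries to 77, 116 and 109 without C1, C2 and C3, and to 117, 533 and 99 without K1, K2 and K3.

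**Figure D2:**
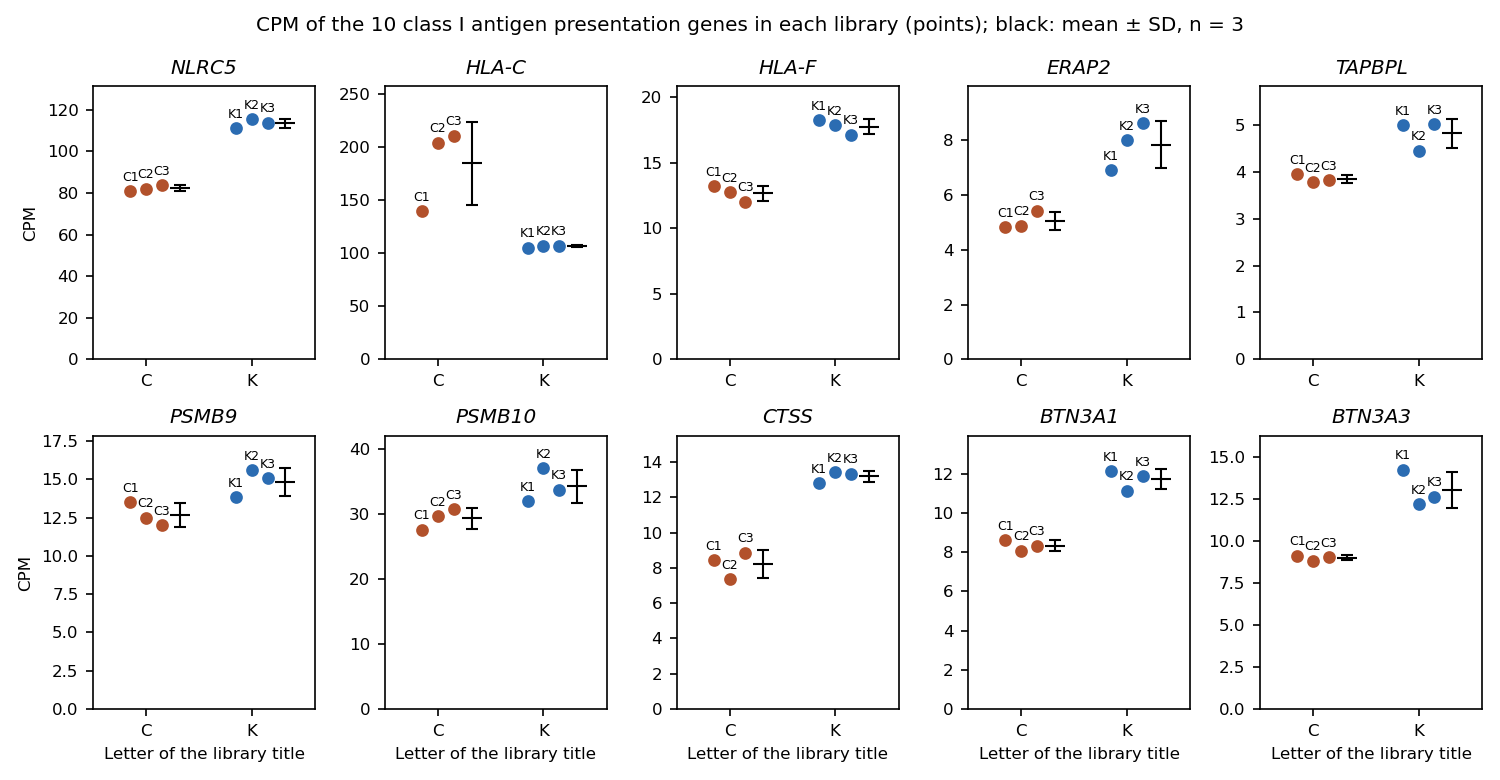
CPM of each member in each library (coloured points, y axis from 0), with the mean and SD of 3 libraries in black. The C points lie below the K points in every panel except HLA-C, where C1 sits between the K libraries and C2 and C3.

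NLRC5 (ENSG00000140853, chromosome 16, 56989485 to 57083531 on GRCh38, plus strand), the transactivator of the pathway, had 80.8, 82.1 and 83.6 CPM in C1, C2 and C3, against 111, 115 and 114 CPM in K1, K2 and K3. By CPM the spread within each letter was small, with a coefficient of variation of 1.73% in C and 1.92% in K, and the letters lay far apart relative to it. The mean was 82.2 ± 1.42 CPM in C and 113 ± 2.17 CPM in K (SD, n = 3 each), a log2 fold change of -0.47 (SE 0.034). None of its 75-base transcript windows occurred in another gene of GENCODE release 29, so its count does not rest on shared sequence. By TPM NLRC5 had 23.5, 27.6 and 26.4 in C and 36.7, 37.3 and 31.4 in K, which also did not overlap. The spread was wider on this scale, with means of 25.8 ± 2.12 in C and 35.1 ± 3.26 in K (SD, n = 3 each). NLRC5 did not pass with limma on log2(TPM + 1), nor in edgeR with the library number as a block.

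PSMB9 and PSMB10 encode catalytic subunits of the immunoproteasome, and they take the places of PSMB6 and PSMB7 of the standard proteasome. PSMB10 (ENSG00000205220, chromosome 16, 67934502 to 67937087, minus strand) had 27.7, 29.8 and 30.8 CPM in C1 to C3 and 32, 37.1 and 33.8 CPM in K1 to K3. PSMB9 (ENSG00000240065, chromosome 6, 32844136 to 32859585, plus strand) had 13.5, 12.5 and 12.0 CPM in C1 to C3 and 13.8, 15.6 and 15.1 CPM in K1 to K3. The letters lie close in both genes, with the highest C library a little under K1, the lowest K library. Their log2 fold changes were -0.22 (SE 0.075) for PSMB10 and -0.23 (SE 0.081) for PSMB9. PSMB10 shares 23.5% of its windows with AC040162.1, which overlaps its exons on the same strand, and PSMB9 overlaps PSMB8-AS1 on the same strand and PSMB8 on the other, so reads could be split among these. Set against the standard subunit in the same library, PSMB9 was at 5.04%, 4.76% and 4.38% of the TPM of PSMB6 in C1 to C3, and at 6.63%, 5.90% and 6.45% in K1 to K3. PSMB10 was at 4.82%, 5.08% and 5.01% of the TPM of PSMB7 in C, and at 5.98%, 6.18% and 6.11% in K. Within each library both immunoproteasome subunits were thus a few percent of their counterparts, and the share was lower in every C library. PSMB6 itself was at 468, 461 and 477 TPM in C1 to C3 and at 360, 454 and 407 TPM in K1 to K3, higher in every C library, so the ratio carries a difference in both genes (PSMB6 log2 fold change 0.18, SE 0.076, edgeR adjusted p = 0.184). The third immunoproteasome subunit, PSMB8, is no member. It was at 18.1%, 19.7% and 22.8% of PSMB5 in C and at 22.1%, 36.2% and 28.5% in K, where the letters overlapped. PSMB8 itself had a log2 fold change of -0.18 (SE 0.077, edgeR adjusted p = 0.207), and its letters overlapped by CPM. PSMB5 had a log2 fold change of 0.29 (SE 0.16, edgeR adjusted p = 0.288), so this ratio too carries a difference in both genes.

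ERAP2 (ENSG00000164308, chromosome 5, 96875939 to 96919716, plus strand), an aminopeptidase that trims peptides in the endoplasmic reticulum, had counts of 160, 164 and 176 in C1 to C3, against 217, 287 and 273 in K1 to K3. In CPM these were 4.83, 4.88 and 5.43 in C and 6.91, 8.0 and 8.63 in K, a log2 fold change of -0.64 (SE 0.12). The deposited TPM gave another picture, with 2.94, 2.60 and 1.96 in C and 3.75, 2.62 and 3.41 in K, so that C1 stood above K2 and the letters overlapped. On log2(TPM + 1) the difference was -0.29, and the log2 ratio of mean TPM, without the added 1, was -0.38. C3 had the most reads and the lowest TPM of the C libraries. ERAP1, its partner, did not pass (log2 fold change -0.02, SE 0.058, edgeR adjusted p = 0.868). By TPM ERAP2 was at 13.0%, 11.4% and 8.14% of ERAP1 in C and at 15.2%, 12.3% and 14.2% in K.

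TAPBPL (ENSG00000139192, chromosome 12, 6452072 to 6462318, plus strand), also called TAPBPR, exchanges peptides on class I molecules outside the loading complex. Its counts were 131, 127 and 124 in C1 to C3, against 157, 160 and 159 in K1 to K3, the lowest of the 10 members in each library. As CPM these were 3.86 ± 0.0904 in C and 4.83 ± 0.320 in K (SD, n = 3 each), a log2 fold change of -0.32 (SE 0.11), which was -0.21 on log2(TPM + 1). Its log2 ratio of mean TPM, without the added 1, was -0.27. Its exons overlap CD27 on the same strand and VAMP1 on the other, and 3.55% of its windows are shared with VAMP1.

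HLA-C (ENSG00000204525, chromosome 6, 31268749 to 31272105, minus strand), a classical class I heavy chain that shows peptides to T cells and is read by receptors of natural killer cells, ran against the other members. Its counts were 4613, 6848 and 6817 in C1 to C3, against 3305, 3840 and 3377 in K1 to K3. In CPM the K libraries were nearly equal, at 105, 107 and 107, while C1 was at 139 and C2 and C3 at 204 and 210. The coefficient of variation was thus 21.3% in C and 0.902% in K, and that of C was above the range of the other members in either letter, 1.73% to 11.1%. C2 was 1.46 times C1, and C1 was 1.31 times the K mean. The log2 fold change was 0.80 (SE 0.15), 0.96 without C1 and 0.69 without C3. As a percent of all listed reads, HLA-C took 0.0139% in C1 (95% Wilson interval 0.0135% to 0.0143%), 0.0205% in C2 (0.0201% to 0.0210%) and 0.0209% in C3 (0.0204% to 0.0214%). In K it took 0.0105% in K1 (0.0102% to 0.0109%), 0.0107% in K2 (0.0103% to 0.0110%) and 0.0107% in K3 (0.0103% to 0.0111%). The gap between C1 and the other C libraries is therefore wider than counting error, which is all that these intervals cover. Of the HLA-C windows 1.3% occur in other class I genes, HLA-H and HLA-B among them, and an HLA-B transcript model overlaps its exons on the same strand. HLA-B was not analysed here.

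HLA-F (ENSG00000204642, chromosome 6, 29722775 to 29738528, plus strand), a nonclassical heavy chain found largely inside cells, had 13.2, 12.7 and 12.0 CPM in C1 to C3 and 18.2, 17.9 and 17.1 CPM in K1 to K3. The log2 fold change was -0.49 (SE 0.066). By TPM it had 14.4, 14.1 and 15 in C1 to C3 and 21.2, 18.2 and 19.9 in K1 to K3, so on both scales the C libraries lay below every K library. HLA-F shares 17.6% of its windows with other genes, and its exons overlap AL645939.1, HLA-F-AS1 and RPL23AP1 on the other strand. Whether counting used strand is not stated, so reads from the shared part of HLA-F and from these partners cannot be told apart.

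B2M, the light chain that pairs with class I heavy chains such as HLA-C, was named after its values were seen. Its counts were 10153, 2715 and 9608 in C1 to C3, against 12396, 9825 and 12375 in K1 to K3. C2 was far below the other libraries, and the gene did not pass (log2 fold change -0.63, SE 0.48, edgeR adjusted p = 0.441, and -0.23 without C2). HLA-C was not low in the same library. None of the B2M windows is shared with another gene.

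**Figure D3:**
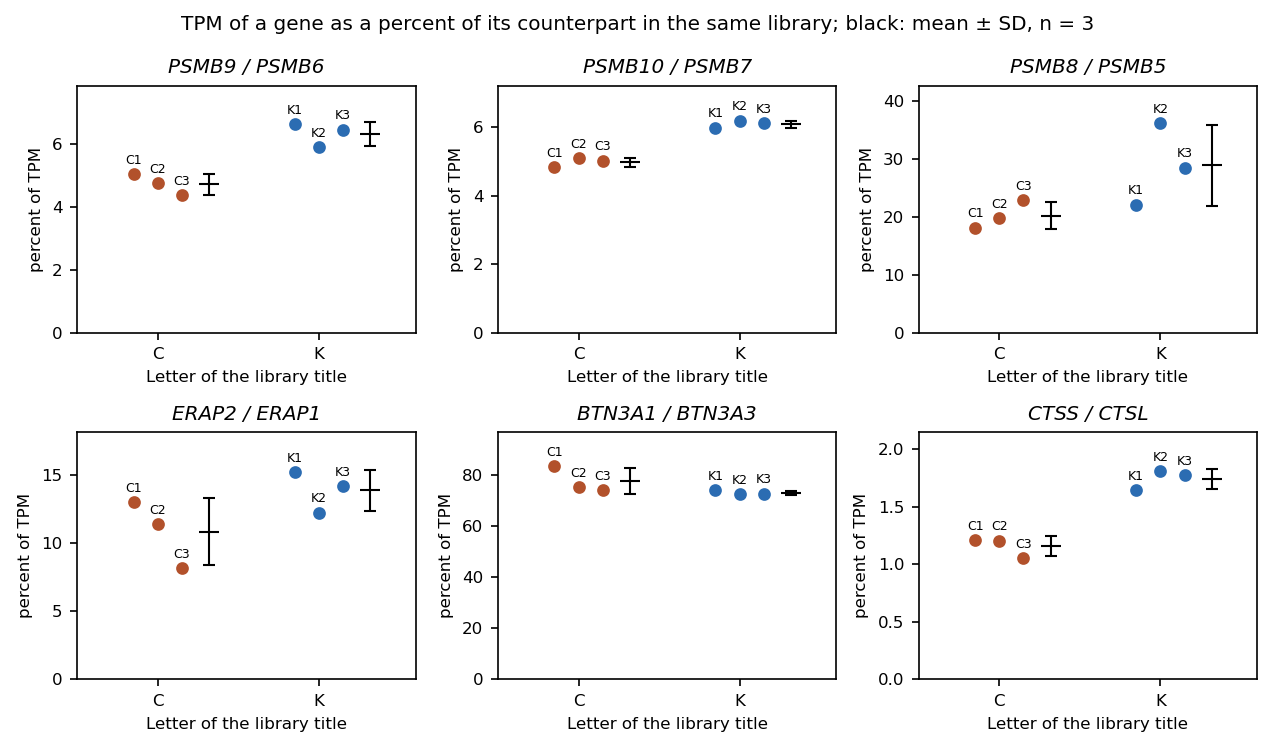
TPM of a member (or of PSMB8) as a percent of the TPM of its counterpart in the same library, one panel per pair, with the mean and SD of 3 libraries in black and each y axis from 0. PSMB10 over PSMB7 runs from 4.82% to 5.08% in C and from 5.98% to 6.18% in K, while ERAP2 over ERAP1 and PSMB8 over PSMB5 overlap between the letters.

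CTSS (ENSG00000163131, chromosome 1, 150730196 to 150765957, minus strand) encodes cathepsin S, a lysosomal protease best known for trimming the class II invariant chain and active on antigens taken up from outside. It had 8.43, 7.36 and 8.86 CPM in C1 to C3 and 12.8, 13.4 and 13.3 CPM in K1 to K3, a log2 fold change of -0.68 (SE 0.091). By TPM it was at 3.10 ± 0.168 in C and 4.32 ± 0.116 in K (SD, n = 3 each). The log2 ratio of these means was -0.48, and the difference on log2(TPM + 1), where 1 is added to each value, was -0.38. Against cathepsin L by TPM, CTSS was at 1.21%, 1.20% and 1.05% in C and at 1.64%, 1.81% and 1.77% in K. Cathepsin L (CTSL) itself averaged 268.6 ± 8.59 TPM in C and 248.6 ± 6.57 TPM in K (SD, n = 3 each), higher in every C library, and did not pass (log2 fold change 0.09, SE 0.031, edgeR adjusted p = 0.121).

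BTN3A1 and BTN3A3 are butyrophilins of a gene cluster near the MHC. BTN3A1 senses phosphorylated metabolites for gamma-delta T cells, and neither protein displays peptides as a class I molecule does. BTN3A1 (ENSG00000026950, chromosome 6, 26402237 to 26415216, plus strand) had 8.61, 8.07 and 8.33 CPM in C1 to C3 and 12.1, 11.1 and 11.9 CPM in K1 to K3. BTN3A3 (ENSG00000111801, chromosome 6, 26440472 to 26453415, plus strand) had 9.12, 8.82 and 9.04 CPM in C1 to C3 and 14.2, 12.2 and 12.6 CPM in K1 to K3. In neither gene did a C library reach a K library. The log2 fold changes were -0.49 (SE 0.076) for BTN3A1 and -0.53 (SE 0.085) for BTN3A3. The family shares sequence, with 9.23% of BTN3A3 windows and 3.99% of BTN3A1 windows found in other genes, mostly BTN3A2, so reads could be split among them. BTN3A1 was at 83.4%, 75.3% and 74.0% of the TPM of BTN3A3 in C and at 73.9%, 72.3% and 72.6% in K, with C1 above the rest. BTN3A2 was at 3.93, 7.54 and 6.48 CPM in C1 to C3, against 9.20, 8.72 and 7.78 CPM in K1 to K3, where C2 came close to K3, and it did not pass (log2 fold change -0.52, SE 0.24, edgeR adjusted p = 0.220).

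By TPM, which sets genes on a scale per length, HLA-C was the highest member in every library, at 93.7 to 189 TPM. PSMB10 (31.1 to 41.0 TPM), NLRC5 (23.5 to 37.3 TPM) and PSMB9 (20.9 to 26.8 TPM) followed, and each overlapped its neighbour in that order. HLA-F, at 14.1 to 21.2 TPM, reached into the range of PSMB9 but was below it in all 6 libraries. The other members lay apart from these, from BTN3A3 (4.86 to 8.53 TPM) and BTN3A1 (4.06 to 6.31 TPM) through CTSS (2.92 to 4.41 TPM) and TAPBPL (3.04 to 4.05 TPM) to ERAP2 (1.96 to 3.75 TPM), with neighbours overlapping. CTSS was above TAPBPL in 4 of 6 libraries, so these do not differ in order beyond their spread.

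CPM divided by TPM is nearly fixed for a gene if its reads are assigned to the same transcript lengths in each library. It varied little for PSMB9, PSMB10 and HLA-C, whose highest library was 1.02 times the lowest in each case. It varied more for NLRC5, HLA-F and BTN3A3 (each 1.22 times) and for CTSS (1.35 times), where C2 was lowest at 2.27 and the K libraries lay between 3.03 and 3.07. ERAP2 varied most of the 10, at 1.86 times, with 1.64, 1.88 and 2.77 in C1 to C3 and 1.84, 3.05 and 2.53 in K1 to K3. The letters overlapped for ERAP2, so the split by letter seen in its reads was not seen in this measure.

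**Figure D4:**
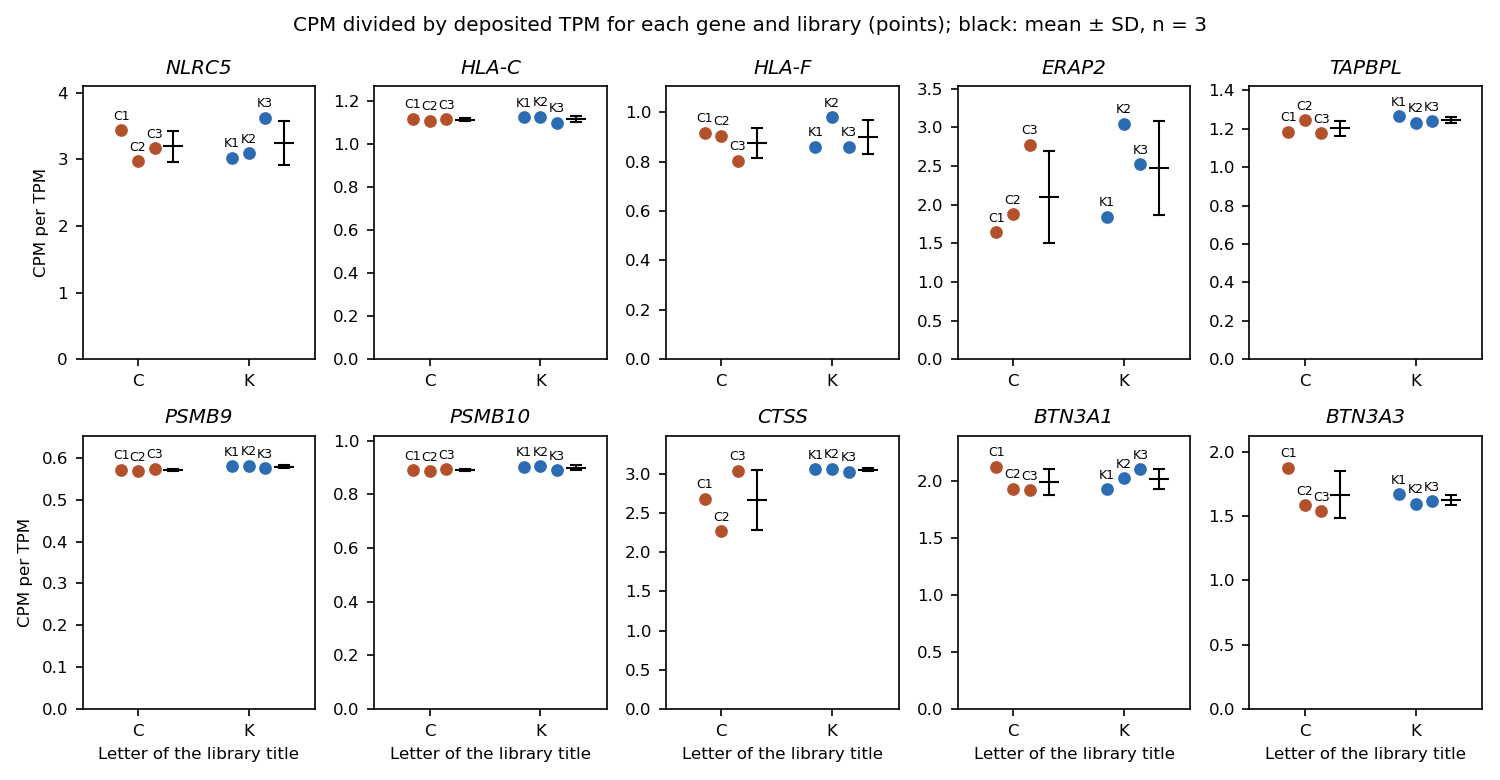
CPM divided by the deposited TPM for each member and library (coloured points, y axis from 0), with the mean and SD of 3 libraries in black. The points of HLA-C, PSMB9 and PSMB10 are level, while those of ERAP2 run from 1.64 in C1 to 3.05 in K2.

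The rest of the pathway was read from 8 lists by role, with 86 genes looked up that are not members, of which 54 were found in the table and 46 were tested. Of these 46, 2 rose and 1 fell in C in edgeR's quasi-likelihood test, which is 6.52%, near the 5.61% of all genes. DESeq2 passed 6 and limma-voom 2 of these, beside 1039 and 498 of all 9057 tested genes. Those all-gene counts are also the background for what the 2 tools passed in each list below. An unadjusted p under 0.05 in edgeR's test was reached by 15, beside 27.0% of all genes. The median log2 fold change of the 46 was -0.04, against -0.004 over all tested genes. Libraries did not overlap for 8 of the 46 in the higher direction and 10 in the lower, beside 16.1% and 17.7% of all tested genes.

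In the list of the peptide loading complex and chaperones, all 6 tested genes had positive log2 fold changes (median 0.10, against -0.004 over all genes). Of these, 2 rose, beside 2.20% of all genes. An unadjusted p under 0.05 in edgeR's test was reached by 3 of the 6, beside 27.0% of all genes, and DESeq2 passed 2 and limma-voom 1. CALR, the chaperone calreticulin (chromosome 19, 12938607 to 12944489), averaged 2058 ± 57.3 CPM over the C libraries, against 1872 ± 21.5 CPM over the K libraries (SD, n = 3 each; log2 fold change 0.14, SE 0.029, edgeR adjusted p = 0.0497). PDIA3, the disulfide isomerase ERp57 of the loading complex (chromosome 15, 43746392 to 43773279), averaged 584 ± 0.334 CPM over the C libraries, against 507 ± 27.4 CPM over the K libraries (log2 fold change 0.20, SE 0.043, edgeR adjusted p = 0.0487). CALR no longer passed in any of the 6 fits with one library left out (edgeR adjusted p 0.0532 to 0.166), and PDIA3 passed in the one without K2 (0.0365) and not in the other 5 (up to 0.146). PDIA3 shares 24.1% of its windows and overlaps ELL3 on the other strand. TAP1 and TAP2, the subunits of the peptide transporter, were named after their values were seen; both had a log2 fold change of 0.10 and did not pass (edgeR adjusted p = 0.141 and 0.194).

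Among cathepsins and class II genes 1 of 7 tested fell, beside 3.41% of all genes. An unadjusted p under 0.05 in edgeR's test was reached by 4 of the 7, beside 27.0% of all genes, and DESeq2 and limma-voom passed 1 each. CTSD, the lysosomal protease cathepsin D (chromosome 11, 1752752 to 1764573), averaged 724 ± 32.9 CPM over the C libraries, against 996 ± 34.0 CPM over the K libraries (log2 fold change -0.46, SE 0.044, edgeR adjusted p = 0.00582), and stayed past the threshold without any single library (adjusted p up to 0.0333). It shares 41.7% of its windows with overlapping gene models, so its reads are uncertain as those of one gene. Another 6 genes of this list, HLA-DRA, HLA-DRB1, HLA-DPA1, HLA-DPB1, HLA-DQA1 and HLA-DQB1, did not pass the low-count filter.

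In the other lists 0 genes passed edgeR's test. Among 8 regulators of class I genes, 7 had negative values, with a median of -0.15; 3 of the 8 had an unadjusted p under 0.05, beside 27.0% of all genes, and DESeq2 passed 2 and limma-voom 0. EZH2, a repressive histone methyltransferase and the highest of them by TPM, averaged 139 ± 6.71 CPM in C, against 139 ± 5.47 CPM in K (edgeR adjusted p = 0.984). STAT2, a transducer of interferon signals named after its values were seen, lay just outside the threshold (log2 fold change -0.29, SE 0.062, edgeR adjusted p = 0.0512). Among 7 genes of the interferon-gamma receptor pathway the median was -0.11; 2 of the 7 had an unadjusted p under 0.05, near that share of all genes, and neither other tool passed any. SOCS3, a feedback inhibitor and the highest of them by TPM, averaged 141 ± 2.36 CPM in C, against 127 ± 7.59 CPM in K (a difference of 0.15 on the log2 scale, SE 0.050, edgeR adjusted p = 0.125).

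Among 4 tested heavy and light chains the median was -0.38, and it was -0.17 without C2, the library where B2M was low; 1 of the 4 had an unadjusted p under 0.05, near the 27.0% of all genes, and DESeq2 passed 1 and limma-voom 0. The gene with the unadjusted p under 0.05 was HFE, a class I-like regulator of iron uptake, named after its values were seen, at 7.31, 7.27 and 10.6 CPM in C and 11.3, 19.3 and 17.7 CPM in K (a difference of -0.94 on the log2 scale, SE 0.24, edgeR adjusted p = 0.0753). By TPM HFE overlapped between the letters, at 5.55, 6.81 and 6.77 in C and 11.9, 7.03 and 6.07 in K, and its CPM per TPM varied 3.09 times over the libraries. Among 7 trimming enzymes the median was 0.01; 1 had an unadjusted p under 0.05 and neither other tool passed any. NRDC, the highest of them by TPM, averaged 299 ± 6.46 CPM in C, against 296 ± 7.97 CPM in K (edgeR adjusted p = 0.842). Among 6 proteasome genes the median was 0.09; 1 had an unadjusted p under 0.05 and neither other tool passed any. PSMB7, the highest of them by TPM, averaged 473 ± 17.3 CPM in C, against 452 ± 26.9 CPM in K (edgeR adjusted p = 0.446). BTN3A2 was the butyrophilin that could be tested; its unadjusted p was not under 0.05 and neither other tool passed it.

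**Figure D5:**
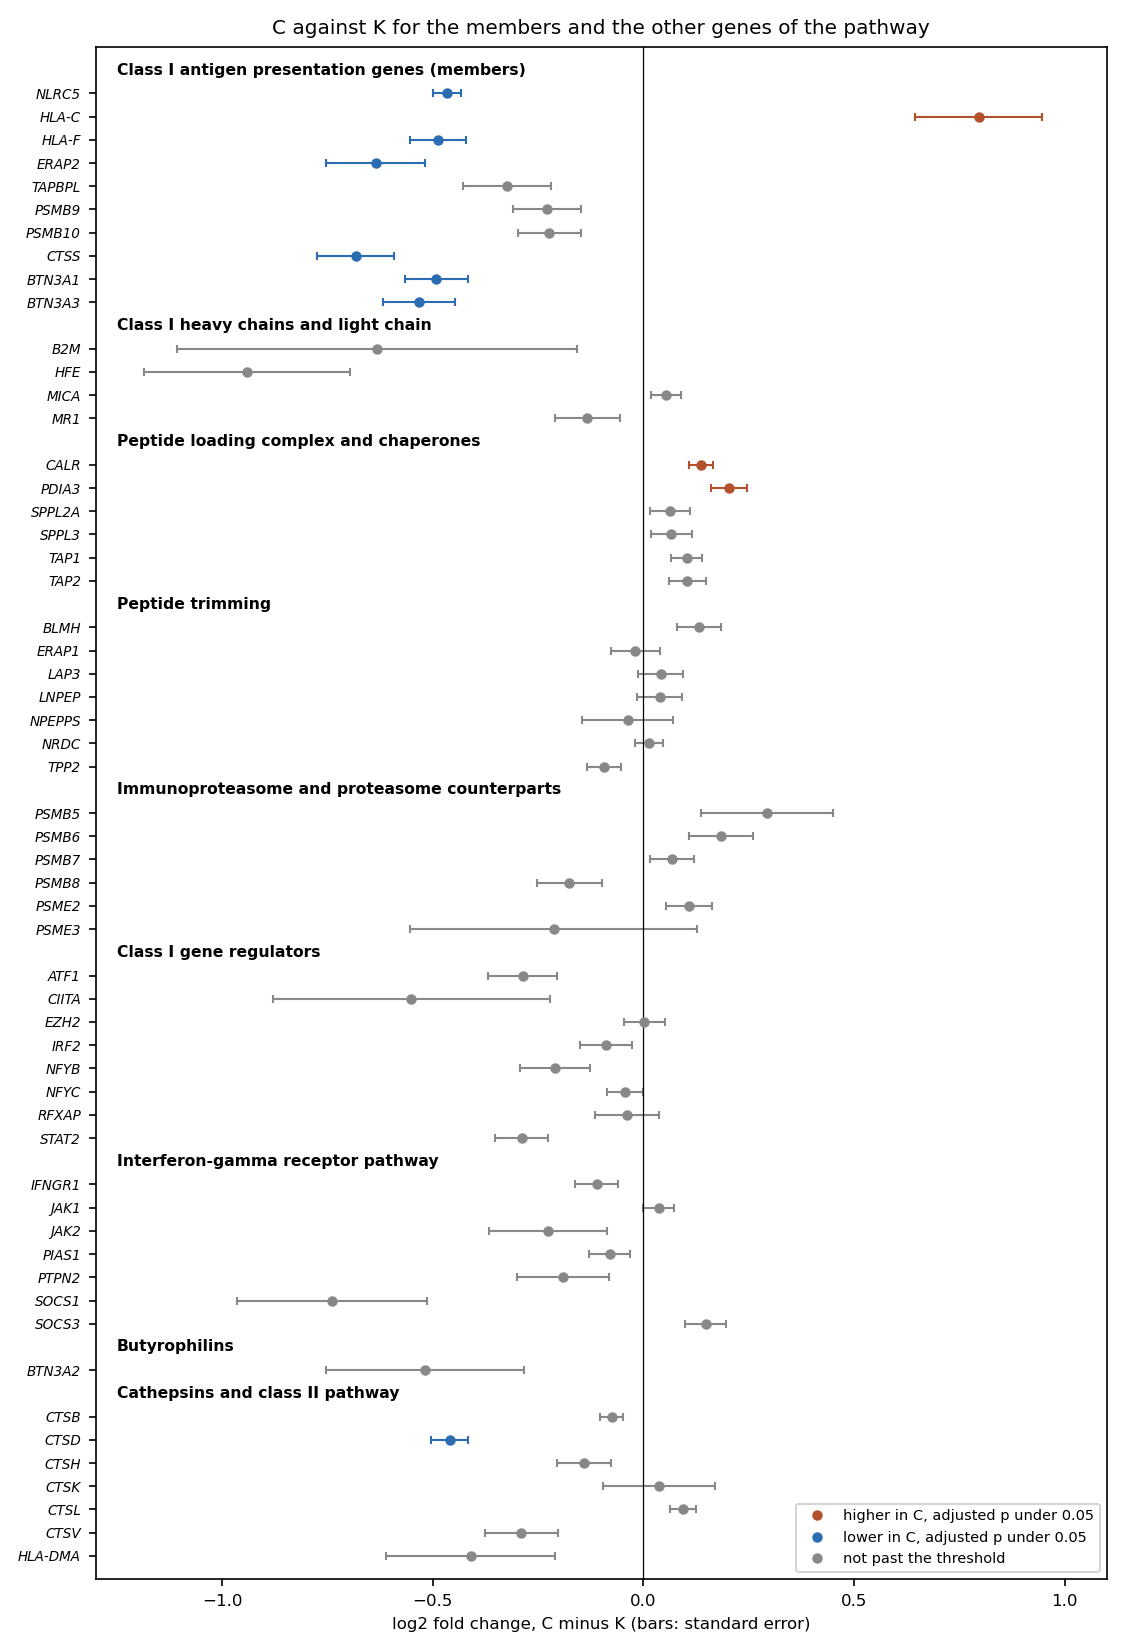
Log2 fold change, C minus K, with its standard error, for the 10 members (top) and the 46 tested genes of the 8 lists; red points passed higher in C, blue points lower in C at an adjusted p of 0.05, and grey points did not pass. The member colours describe how the members were picked. HLA-C stands alone on the right among the members, and most listed genes lie near 0.

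Likeness to NLRC5 and HLA-C was measured by Pearson's r of log2 CPM over the 6 libraries, over the 4528 tested genes in the upper part of the expression range, from the median up, as a description. The genes most like NLRC5 were NTN4 (r = 0.999), MAP3K20 (0.997) and PTGES (0.997), with log2 fold changes of -0.29, -0.12 and -0.62. Those most like HLA-C were DRAP1 (0.996), EXOC7 (0.989) and FAM53B (0.984), with log2 fold changes of 0.16, 0.49 and 0.17. The 6 points share library and letter, and with so few points many genes reach a high likeness. By Spearman's rho 11 genes tied at 1 with NLRC5 and 73 tied at 1 with HLA-C. Of the 3 genes named for NLRC5, 1 was among these ties, and of the 3 for HLA-C 0 were.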

How the data were processed

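The authors deposited 1 table with a count, a TPM and an FPKM value per gene and library. The column headers give only the names Count, TPM and FPKM. Count was taken as reads per gene, and TPM and FPKM as units scaled by length and library total. StringTie 1.3.3b, HISAT2 2.1.0, Trimmomatic and FastQC 0.11.2 appear in the submitters' processing notes, with GRCh38 and hg38 as builds; which tool counted reads, and whether by strand, is not given in the sources used here. Positions are those of the table, on GRCh38. The listed genes held 67.1% to 67.9% of the total TPM of a library and the rest was not analysed here; 1 incomplete row was dropped.

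The count test on the deposited values was that of edgeR 4.0.16 (R 4.3.3): filterByExpr (minimum count 10, total 15), TMM (factors 0.993 to 1.007), quasi-likelihood test of C against K over 6 libraries without covariate, Benjamini-Hochberg adjustment at 0.05. SE is the log2 fold change over the square root of F. The steps were tested on simulated data. Alternatives used DESeq2 1.42.0, limma 3.58.1 (voom, and log2(TPM + 1) at a mean TPM of at least 1), a replicate block, other scaling and filters, and each library left out. The members and lists were chosen with earlier results of these data known. Besides the members, the text names, per list, up to 4 genes past the threshold and the gene of highest mean TPM, 3 genes most like NLRC5 and HLA-C, and counterparts chosen by role; others are marked as chosen after their values were seen. From the lists, 1 gene and 1 marker are not reported here and are left out of the list and marker counts. Shared sequence is the percent of a gene's 75-base windows in GENCODE release 29 transcripts that occur in another gene on either strand. Promoter sequences are from RefSeq, GRCh38.p14.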

Additional observations from a re-analysis of the deposited data

How the results depend on the processing

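The sign of every member's log2 fold change was kept in all 140 refits of the 10 members; 6 values, all on log2(TPM + 1), moved by more than 1 SD. Over all genes 508 passed; DESeq2 passed 1039, limma on log2(TPM + 1) 279, and leaving out one library gave 77 to 533. Of the members 7 passed, with 4 on log2(TPM + 1) and 1 to 5 without one library. Of the other pathway genes 3 passed, with 1 with no filter beyond 1 read, 6 in DESeq2, 1 on log2(TPM + 1) and 1 to 3 without one library. The cause of these changes was not tested. A fit with one library left out also has fewer libraries, and among these fits the one without K2 passed 533 genes over all genes. With the replicate block edgeR passed 24 genes, 0 members (8 at an unadjusted p under 0.05, 7 in DESeq2 without the block) and 0 other pathway genes (13 at an unadjusted p under 0.05), beside 21.4% of all genes at an unadjusted p under 0.05 in that fit; the members were picked on these differences. Whether the numbers pair the libraries is not stated. Deviations of same-numbered libraries from their letter means correlated at -0.0891, 0.0323 and -0.00432, and not every library correlated best with its own number. These correlations cannot decide the pairing, since deviations within a letter of 3 libraries are bound to balance. Near-zero values that changed sign were those of NRDC (-0.00344 to 0.0359 without one library) and EZH2 (-0.00076 at a mean of at least 50 counts, -0.0376 to 0.0338 without one library). The PDIA3 and CALR calls were also lost with no filter beyond 1 read (adjusted p = 0.0548 and 0.0544) and on log2(TPM + 1) (0.241 and 0.0512), that of CALR also in limma-voom (0.0556), and that of CTSD under the block (0.0604). The 3 libraries a letter, and 124 to 176 reads for the lowest members in C, limit what small differences could be seen.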
